A study of Mus musculus with 401 samples.

Results

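The 9 genes described here are feedback genes of cytokine, NF-kB and interferon signaling. They are the signal suppressors Socs3 and Socs2, the NF-kB regulators Nfkbia, Nfkbiz and Tnfaip3, and the transcription factors Irf1, Prdm1, Cebpb and Stat3. They were found by symbol in the count tables of both sets of samples and were 9 of 43633 gene identifiers listed in either table. All 9 passed the filter on low counts in each comparison. RNA was sequenced by RamDA-seq, a full-length total RNA method, from single fully grown oocytes and from the pool of cumulus cells around each, the somatic cells that feed and instruct the oocyte inside its follicle. All mice were B6D2F1 females, a cross of C57BL/6 and DBA/2, fed ad libitum except for the calorie-restricted (CR) group. The first set held young (2 months, 2 mice), middle (9 months, 4 mice), old (14 months, 2 labels, of which Old1_2 joins 2 mice) and CR mice (9 months, 3 mice). The second set held mice at 2 (5 mice), 4 (8), 9 (4) and 14 months (5) and 8 mice at 2 months without hyperovulation (2moNoH). The other groups had received eCG or CARD HyperOva to stimulate follicles, and which mouse received which is not given in the sources used here. Complexes were collected in medium with IBMX, which raises cAMP and keeps oocytes arrested. Labels of the second set carry a code that begins with B1 or B2. It is read here as a plate, which the labels do not state.

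These genes sit in loops that switch a signal off or tune it. Cytokines of the interleukin 6 family act through JAK kinases and STAT3, and STAT3 turns on Socs3, whose protein inhibits the receptor and its kinases. NF-kB turns on Nfkbia, which encodes the inhibitor that returns NF-kB to the cytoplasm, and Tnfaip3, which encodes the ubiquitin-editing enzyme A20, and both end the response. In the ovary, the gonadotropin surge that triggers ovulation also engages cytokine signaling in granulosa and cumulus cells, and Cebpb takes part in their differentiation.

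The members were chosen with earlier results of these data known, and were selected on, at least in part, the fitted age differences of cumulus cells in the first set, where Socs3 was among the largest decreases from young to middle and Prdm1 from young to old mice. What brought in the other members is not recorded. The age values of first-set cumulus cells, and the CR values of cumulus cells, which rest on the same middle mice, are therefore given as a description with no test. The other comparisons were tested over mice with edgeR's quasi-likelihood test, with Benjamini-Hochberg adjustment over all genes tested and a threshold of 5%. Levels are in CPM of counts summed over the complexes of a mouse. They were scaled to the library total after TMM normalization within each set and cell type. Differences are on the log2 scale. Fits that held both cell types were normalized over both together, so their differences can depart from the CPM in size and sign.

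The promoters of Socs3, Irf1 and Nfkbia are shown because the age, hyperovulation and CR values described below are largest or closest to the threshold in these genes. In GRCm38, Socs3 spans chr11:117966079-117970047 on the minus strand, Irf1 chr11:53770014-53778374 on the plus strand and Nfkbia chr12:55489410-55492647 on the minus strand. Each RefSeq sequence (GRCm38.p6) runs 5′ to 3′ along the gene from 250 bases before to 50 bases after a transcription start, and capitals mark matches to the motifs searched.
Socs3, chr11:117969317-117969616, minus strand: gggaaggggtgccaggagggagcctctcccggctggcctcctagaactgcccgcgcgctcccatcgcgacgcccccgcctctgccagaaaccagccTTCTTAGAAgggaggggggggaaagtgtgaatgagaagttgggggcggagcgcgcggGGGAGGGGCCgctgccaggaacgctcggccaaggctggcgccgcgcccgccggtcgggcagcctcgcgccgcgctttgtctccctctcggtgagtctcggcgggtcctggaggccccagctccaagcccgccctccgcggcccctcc
Irf1, chr11:53769764-53770063, plus strand: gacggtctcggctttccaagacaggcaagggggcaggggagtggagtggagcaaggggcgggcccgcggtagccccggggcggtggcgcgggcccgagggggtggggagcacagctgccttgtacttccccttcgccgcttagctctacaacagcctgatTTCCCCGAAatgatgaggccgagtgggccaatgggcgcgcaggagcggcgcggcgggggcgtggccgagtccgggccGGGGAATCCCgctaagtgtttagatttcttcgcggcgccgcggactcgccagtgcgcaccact
Nfkbia, chr12:55492598-55492897, minus strand: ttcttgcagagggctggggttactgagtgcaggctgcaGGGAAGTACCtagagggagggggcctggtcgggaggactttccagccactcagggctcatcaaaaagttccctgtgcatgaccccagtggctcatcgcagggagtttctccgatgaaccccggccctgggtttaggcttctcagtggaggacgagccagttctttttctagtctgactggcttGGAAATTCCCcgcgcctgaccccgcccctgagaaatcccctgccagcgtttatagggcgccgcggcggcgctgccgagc
The Socs3 window held TTCTTAGAA, a match to the STAT motif TTCNNNGAA, and GGGAGGGGCC, a match to the NF-kB motif GGGANNNNCC. This window lies inside the Socs3 span given above, so its RefSeq start is downstream of the 5′ end of that span. The Irf1 window held TTCCCCGAA for STAT and, on the other strand, the NF-kB match GGGGAATCCC. The Nfkbia window held the NF-kB matches GGGAAGTACC and, on the other strand, GGAAATTCCC. Both strands were searched, and no match shown overlaps another. RefSeq windows were matched for 7 of the 9 members, 9 windows in all, and none is shown for Socs2 and Nfkbiz. The NF-kB motif was in 6 of these 9 windows, those of Cebpb, Nfkbia and Socs3, 1 of Irf1 and both of Tnfaip3. It was in 20.7% of 32851 promoter windows of the same length. The STAT motif was in 2 of 9 and in 8.3% of all windows. The AP-1 motif TGANTCA was in 2 of 9 (Prdm1 and Tnfaip3) and in 7.81% of all. The interferon motif GAAANNGAAA, the cAMP motif TGACGTCA and the C/EBP motif TTGCNNAA were in 0 of 9 windows, and in 3.44%, 1.79% and 10.8% of all. A match describes letters in this window, not binding.

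Reads of some members could not be told apart from those of other genes. In the second set, 62.0% of the nonzero values of Socs2, 49.4% of Irf1, 49.0% of Cebpb and 54.1% of Stat3 were not whole numbers, since a read with several possible genes was divided between them. Irf1 overlaps Gm17334, Cebpb overlaps Tmem189 and Stat3 overlaps Stat5a, each on the other strand, and it is not stated whether counting used strand. Socs3, Nfkbia, Tnfaip3 and Prdm1 had whole counts in every library and no overlapping gene.

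In all, 399 libraries were used. Total counts per library were 848243 to 2501005 in cumulus cells and 559305 to 4536690 in oocytes of the first set, and 510029 to 1147286 and 1238441 to 2583456 in the second. In the first set, 1 complex of mouse Middle3 was left out because its oocyte library resembled cumulus cells. This left that mouse with 1 cumulus and 1 oocyte library. The 10 granulosa markers all had a median of at least 1 CPM in cumulus libraries, and their sum per mouse was 3540 to 9840 CPM in the second set. In these same pools, 11 of 12 oocyte markers had a median under 1 CPM, and the zona gene Zp3 was among them. Of 12 leukocyte markers, 8 had a median under 1 CPM, among them Ptprc, Adgre1 and Tyrobp. Cd68, Csf1r, Cd3e and Cd79a had a median of at least 1 CPM. The 12 summed to 5.77 to 57.3 CPM per mouse. In bulk pools, fewer cells of a type and less RNA per cell cannot be told apart.

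At 2 months, cumulus cells of the second set expressed all 9 members. Per gene length, in the deposited RPKM averaged per mouse, Socs2, an inhibitor of growth hormone and cytokine receptors, had the highest mean level at 37.6 ± 2.29 RPKM (SD, n = 5). Stat3 had 30.9 ± 12.8 RPKM and Nfkbia 28.5 ± 8.03 RPKM, and the mice of these 3 genes overlapped. Below them came Irf1, an activator of interferon-responsive genes (16.2 ± 0.864 RPKM), Nfkbiz, a nuclear partner of NF-kB (14.6 ± 3.88), Socs3 (11.2 ± 6.43) and Cebpb (11.1 ± 3.46). Prdm1, a transcriptional repressor known from plasma cells and primordial germ cells, had 2.98 ± 2.12 RPKM and Tnfaip3 2.07 ± 1.01 RPKM. Of neighbours in this order, only Nfkbia and Irf1 did not overlap between mice.

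Oocytes of the same 5 mice held another order. Irf1 had the highest level at 35.5 ± 2.03 RPKM (SD, n = 5), followed by Nfkbia with 25 ± 3.14 and Nfkbiz with 25 ± 1.96 RPKM. Stat3 had 17.1 ± 0.61, Cebpb 9.76 ± 1.73 and Prdm1 8.38 ± 0.309 RPKM. Socs3 had 1.35 ± 0.233, Socs2 0.146 ± 0.148 and Tnfaip3 0.0301 ± 0.031 RPKM. Nfkbia and Nfkbiz, Cebpb and Prdm1, and Socs2 and Tnfaip3 overlapped with each other between mice, and the other neighbours did not.

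The direct comparison of cumulus cells with oocytes at 2 months called 6 of 9 members, 3 higher in cumulus cells and 3 lower. It also called 81.3% of 28485 genes tested (41.6% higher and 39.6% lower), so that a difference between these cell types was common to most genes. Socs2 was 356, 324, 381, 367 and 370 CPM in cumulus cells of the 5 mice and 0.254, 0.242, 1.39, 1.57 and 3.85 CPM in their oocytes, with a log2 difference of 7.39 ± 0.319 (SE, adjusted p = 4.77e-14). Tnfaip3 was 6.23 to 23.5 CPM in cumulus cells (median 16.5) and 0 to 0.561 CPM in oocytes (difference 5.49 ± 0.482, adjusted p = 2.77e-09). Its oocyte level rests on few reads, with 45 counts over 127 oocyte libraries of the second set, 100 of them at 0. Socs3 was 41.8, 13.7, 57.7, 24.4 and 25.1 CPM in cumulus cells and 3.03 to 4.72 CPM in oocytes (difference 2.57 ± 0.295, adjusted p = 1.44e-07). For each of these genes every cumulus value lay above every oocyte value.

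The genes lower in cumulus cells were Irf1, Prdm1 and Nfkbiz. Irf1 was 70.9, 61.2, 59.6, 62.8 and 67.0 CPM in cumulus cells and 147, 147, 146, 137 and 130 CPM in oocytes (difference -1.63 ± 0.108, adjusted p = 3.63e-11). Prdm1 was 10.0, 37.8, 13.6, 10.1 and 11.6 CPM in cumulus cells and 43.2 to 48.9 CPM in oocytes (difference -2.0 ± 0.266, adjusted p = 1.12e-06). Nfkbiz was 49.9 to 99.4 CPM in cumulus cells and 113 to 142 CPM in oocytes (adjusted p = 4.13e-07). Nfkbia (difference -0.28 ± 0.175), Cebpb (-0.28 ± 0.216) and Stat3 (0.36 ± 0.207) did not pass, with adjusted p of 0.139, 0.229 and 0.115. With the mouse as a block, Nfkbia also passed (-0.31, adjusted p = 0.0375). Stat3 passed with libraries as the unit (adjusted p = 0.00432), with filterByExpr (0.0395) and on plate B1 alone (0.62, adjusted p = 0.0234). On plate B2 alone its fitted sign turned (-0.19, adjusted p = 0.168). Its CPM there were 185 to 208 in cumulus cells and 156 to 161 in oocytes. The 10 granulosa markers summed to 72.7 to 104 CPM in these oocytes, against 5180 to 7670 CPM in cumulus cells. Their part in the oocyte values was not tested.

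**Figure D1:**
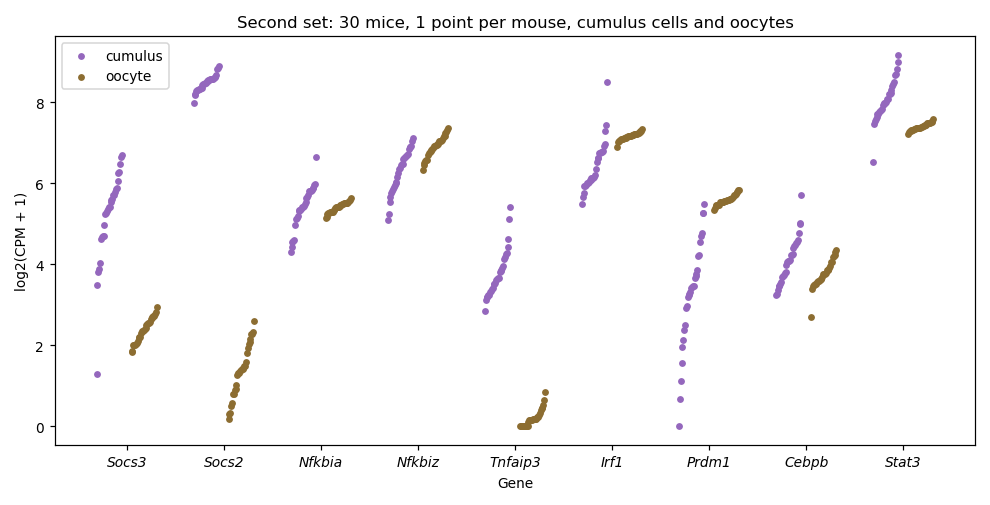
Level of each member, as log2(CPM + 1), in cumulus cells (purple) and oocytes (brown) of the 30 mice of the second set, 1 point per mouse, sorted within each cell type. Oocyte points of Irf1, Prdm1, Nfkbia and Stat3 lie close together, while cumulus points of Socs3 run from 1.44 to 103 CPM and those of Prdm1 from 0 to 43.6 CPM.

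The spread between mice also differed between cell types, in both directions. Over the 30 mice of the second set, all groups together, the coefficient of variation in oocytes was 6.13% for Stat3, 6.57% for Irf1, 8.86% for Nfkbia and 8.91% for Prdm1. In cumulus cells it was 36.8% for Stat3, 62.0% for Irf1, 37.1% for Nfkbia and 88.9% for Prdm1, and 57.4% for Socs3. These values include differences between groups. At 2 months alone, Irf1 was 64.3 ± 4.6 CPM (SD, n = 5) in cumulus cells and 141 ± 7.64 CPM in oocytes. Cumulus libraries were also shallower, with a median of 859184 counts against 2096345 in oocytes. Socs2 was the steadiest member in cumulus cells (13.9%), with 251 to 475 CPM, but had 69.3% in oocytes. Tnfaip3 likewise had 55.2% in cumulus cells and 118% in oocytes, and the oocyte levels of both were low. Of the variance of log2 levels between cumulus libraries, 55.4% lay between mice for Stat3 and 48.0% for Socs3. The median was 16.2% over 10469 genes with at least 8 CPM. These members had the highest shares, and Tnfaip3 (12.7%) and Socs2 (17.4%) the lowest. Complexes of a mouse share plate, handling and hormone treatment, and these parts were not told apart. In the first set the shares were 38% for Stat3 and 19.4% for Socs3, with a median of 8.55% over 10543 genes. Tnfaip3 (0%), Socs2 (6.66%), Cebpb (7.05%) and Nfkbia (8.54%) lay below that median, and the other members above it.

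Plates B1 and B2, as read here from the label codes of the second set, differed for some members. In cumulus cells, every B1 mouse was above every B2 mouse for Stat3 in 3 of 5 groups and for Nfkbia in 3 of 5. At 2moNoH, for instance, Stat3 was 336 to 577 CPM in the 4 mice of B1 and 223 to 257 CPM in those of B2. In oocytes, the same held for Cebpb in 4 of 5 groups. Each mouse was on 1 plate and each group on both, so tests were repeated within plates.

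In first-set cumulus cells, given as a description only, Socs3 was 89.5 and 37.6 CPM in young mice and 7.9, 2.73, 15.5 and 5.02 CPM in middle mice. It was 8.41 and 10.7 CPM in old mice. Both young mice lay above all middle and old mice, with fitted differences of -3.31 ± 0.622 (SE) in middle and -2.72 ± 0.7 in old mice. Irf1 had 159 and 80.4 CPM in young, 47.4, 20.1, 60.2 and 25.8 CPM in middle and 42.3 and 36.6 CPM in old mice, again without overlap. Nfkbiz had 127 and 123 CPM in young, 22.7 to 95.4 CPM in middle and 40.1 and 62.3 CPM in old mice. Young mice were the highest here too.

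Prdm1 was 7.86 and 16.5 CPM in young mice, 26.5, 3.48, 0 and 2.18 CPM in middle mice and 2.07 and 3.05 CPM in old mice. The highest and the lowest value were thus both in middle mice, and the lowest, in Middle3, rests on a single library. Stat3 was 186 and 173 CPM in young, 59.2 to 214 CPM in middle and 84.7 and 110 CPM in old mice. Socs2 was level, with 333 to 354 CPM in young, 266 to 388 CPM in middle and 359 to 377 CPM in old mice. Tnfaip3 was 14.5 and 14.3 CPM in young, 6.12 to 11.4 CPM in middle and 13.5 and 16.8 CPM in old mice, and thus lowest in middle mice. Nfkbia (41.1 and 37.2 CPM in young mice, 25.4 and 27.1 in old) and Cebpb (15.7 and 16.8 CPM in young, 10.8 and 8.53 in old) were also lower in both old mice than in both young mice. The median fitted difference of the 9 members was -0.53 in middle and -0.89 in old mice, both against the same 2 young mice.

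**Figure D2:**
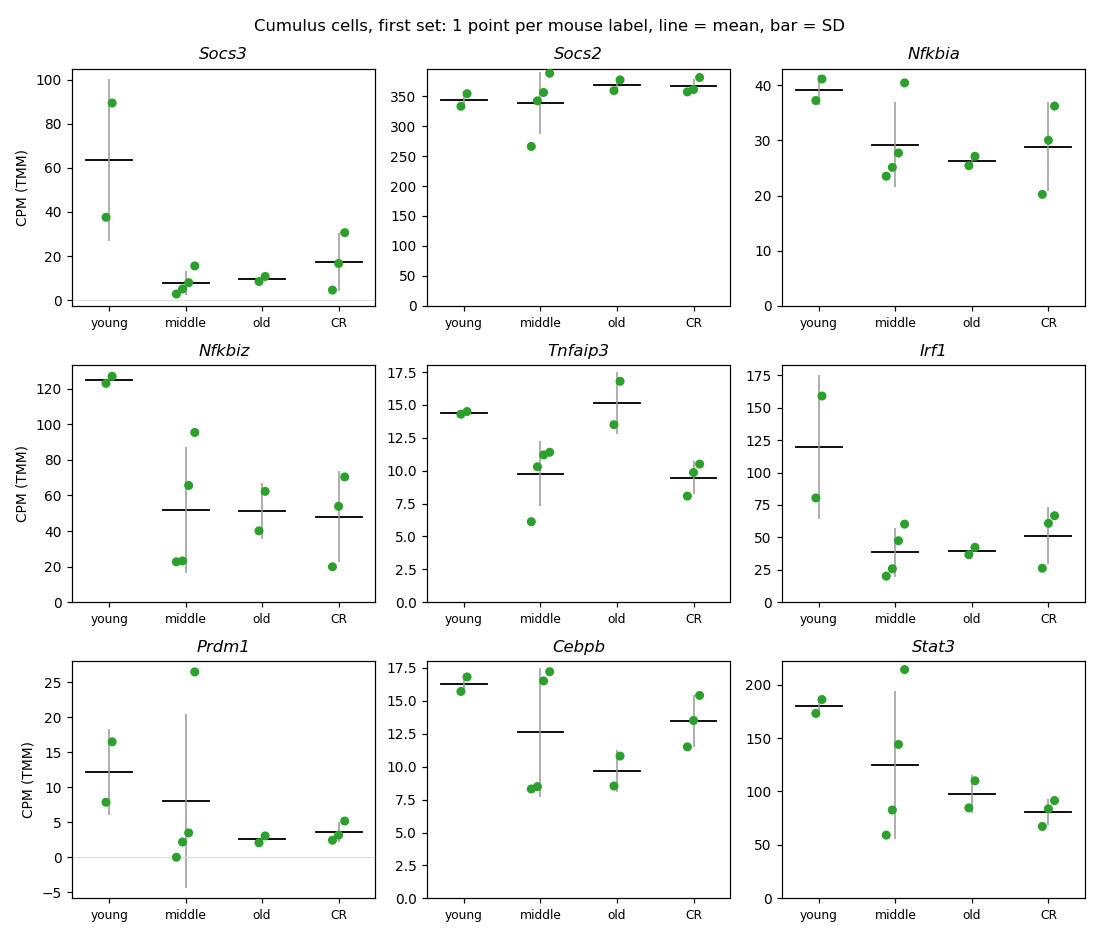
CPM of each member in cumulus cells of the first set, 1 point per mouse label, with the group mean (line) and SD (bar). Young points of Socs3, Irf1 and Nfkbiz lie above those of middle and old mice, while Socs2 lies between 266 and 388 CPM in all groups.

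Immediate early genes, which respond within minutes to stimulation or to tissue handling, were also higher in both young mice than in all middle and old mice, as Socs3, Irf1 and Nfkbiz were and the other 6 members were not. Their summed level over 24 genes was 9790 and 13100 CPM in the young mice, 1650 to 8090 CPM in middle mice and 4280 to 5240 CPM in old mice. The 3 mice with the lowest sums, Middle4 (1650 CPM), Middle2 (2060) and CR1 (2270), also had the 3 lowest Nfkbiz levels, 22.7, 23.2 and 19.9 CPM. In the same pools 8 heat shock genes summed to 2130 to 2590 CPM in young, 1580 to 1770 in middle and 1830 to 1920 CPM in old mice. The 37 mitochondrially encoded genes summed to 92700 to 108000 CPM in young, 49800 to 85200 in middle and 82500 to 88700 CPM in old mice. Young mice lay above all middle and old mice in all 3 sums, and their part in the age values was not tested. The 12 leukocyte markers summed to 9.07 to 9.41 CPM in young and 5.35 to 24.1 CPM in middle mice.

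In the second set, no age comparison of cumulus cells called a member. The comparison of 14 with 2 months called 0 of 9 members by edgeR and 0 by DESeq2, with 1 at an unadjusted p under 0.05, and 0.0791% of 29078 genes. Socs3 was 41.8, 13.7, 57.7, 24.4 and 25.1 CPM at 2 months and 51.8, 88.0, 98.7, 47.1 and 51.8 CPM at 14 months. The groups overlapped, and the older mice had the higher mean. The difference was 1.02 ± 0.52 (SE, adjusted p = 0.657), with 1.03 within plate B1 and 1.01 within plate B2. The sets were normalized in separate tables and were not tested against each other.

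The other members at 14 months lay closer to their levels at 2 months. Irf1 was 49.9, 120, 109, 90.4 and 124 CPM at 14 months, with 4 of 5 mice above the highest mouse at 2 months (70.9 CPM), and its difference was 0.61 ± 0.331 (adjusted p = 0.684). Socs2 was 475, 451, 460, 391 and 358 CPM at 14 months, against 324 to 381 CPM at 2 months (difference 0.25 ± 0.11, adjusted p = 0.608). Nfkbiz was 69.7 to 119 CPM (0.44 ± 0.301) and Nfkbia 22.5 to 62.5 CPM (-0.39 ± 0.302). Prdm1 (-0.28 ± 0.694), Cebpb (-0.22 ± 0.342), Stat3 (-0.16 ± 0.287) and Tnfaip3 (-0.07 ± 0.397) had differences smaller than their SE. The median over the 9 members was -0.07, beside -0.004 over all genes.

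The other age comparisons called no member either. At 4 months, Socs3 was 23.5 to 75.3 CPM (median 46.8) and Prdm1 2.89 to 12.5 CPM (median 7.78), and the comparison with 2 months called 0 members and 0% of all genes (DESeq2 1 gene, 1692 genes at an unadjusted p under 0.05). The Prdm1 difference was -1.21 ± 0.625 (adjusted p = 0.831). At 9 months, Socs3 was 25, 37.1, 57.4 and 12.9 CPM and Prdm1 37.8, 22.5, 8.93 and 17.6 CPM, and 0 members were called, beside 0.103% of all genes. From 4 to 14 months 0 members and 0.199% of genes were called, and 2 members had an unadjusted p under 0.05, Socs2 (0.28 ± 0.098, adjusted p = 0.293) and Nfkbia (-0.61 ± 0.277, adjusted p = 0.447). From 9 to 14 months 0 members and 0% of genes were called (DESeq2 1 gene, 1855 at an unadjusted p under 0.05), and Socs3 differed by 1.01 ± 0.561 (adjusted p = 0.799). DESeq2 called 0 members in each of these comparisons. The summed immediate early genes overlapped between ages, with 5850 to 11300 CPM at 2, 6330 to 12000 at 4, 3130 to 9590 at 9 and 6220 to 10300 CPM at 14 months.

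**Figure D3:**
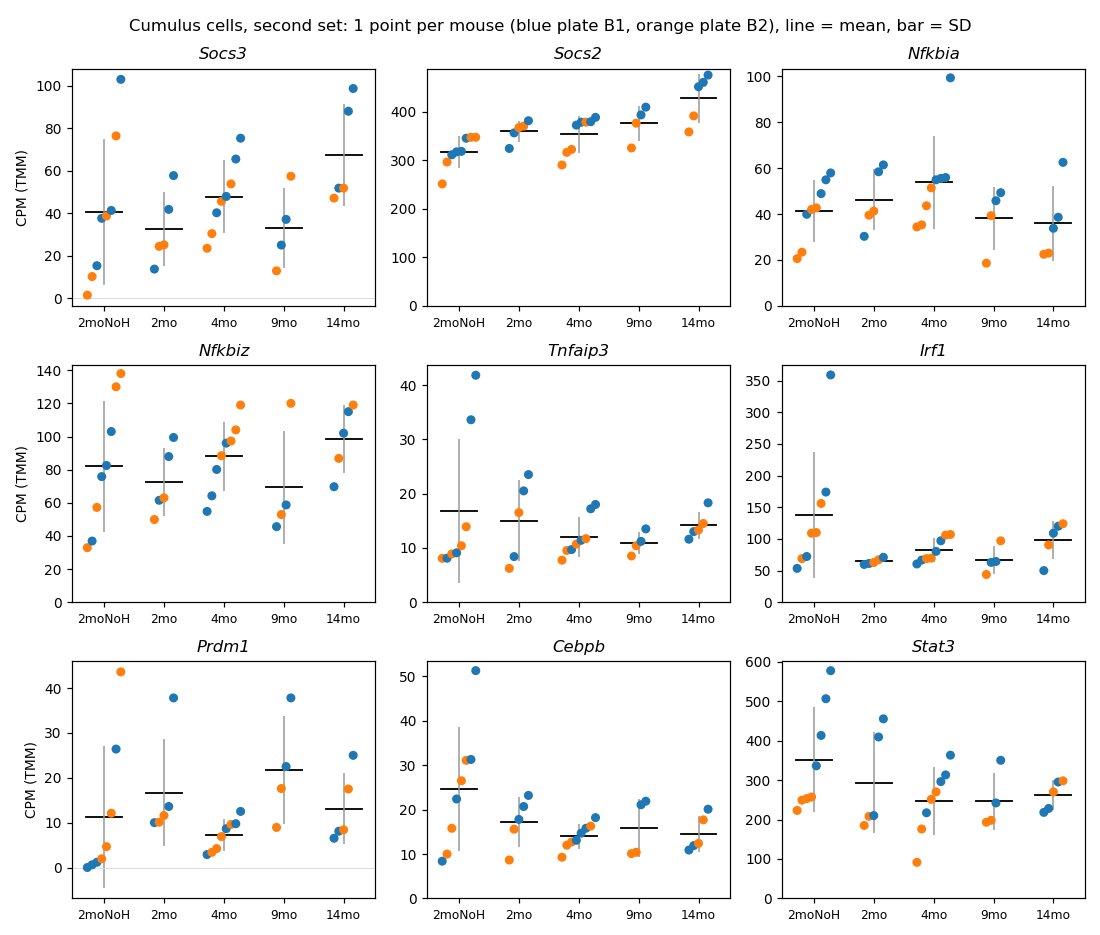
CPM of each member in cumulus cells of the second set, 1 point per mouse (blue plate B1, orange plate B2), with the group mean (line) and SD (bar). The age groups overlap in every member, and Irf1 at 2 months lies between 59.6 and 70.9 CPM while mice without hyperovulation reach 359 CPM.

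Oocytes held their levels of most members at all ages. Irf1 was 130 to 147 CPM at 2, 137 to 156 at 4, 135 to 161 at 9 and 128 to 157 CPM at 14 months, and Stat3 156 to 171, 159 to 184, 160 to 180 and 154 to 167 CPM. Prdm1 was 43.2 to 48.9 CPM at 2 and 41 to 53.7 CPM at 14 months. No member was called at 4, 9 or 14 months against 2 months by edgeR or DESeq2, beside 0%, 0.0541% and 0.198% of 27727 genes (at 4 months DESeq2 called 2 genes, and 1358 had an unadjusted p under 0.05). The lowest adjusted p at 14 months was that of Cebpb, which was 14.0, 14.4, 19.5, 13.5 and 12.8 CPM at 2 and 11.8, 5.48, 10.8, 10.4 and 11.4 CPM at 14 months. These groups did not overlap, and the difference was -0.56 ± 0.177 (adjusted p = 0.221), with -0.76 within plate B1 (adjusted p = 0.0444) and -0.27 within plate B2 (0.79). Cebpb shares divided reads and lies opposite Tmem189. Socs2 in oocytes went from 0.242 to 3.85 CPM at 2 months to 1.49 to 5.06 CPM at 14 months, with 2.18 within plate B1 (adjusted p = 0.0118) and -0.34 within plate B2. Its summed granulosa markers were 72.7 to 104 CPM at 2 and 100 to 129 CPM at 14 months.

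In first-set oocytes, old against young mice called 0 of 9 members and 0% of 28999 genes (DESeq2 0 members and 10 genes, and 2740 genes at an unadjusted p under 0.05). Irf1 was 133 and 135 CPM in young and 115 and 142 CPM in old mice. Nfkbiz was 117 and 131 CPM in young and 86.6 and 93.0 CPM in old mice, without overlap (difference -0.47 ± 0.214, adjusted p = 0.524). The difference between cell types in the change from 2 to 14 months called 0 members and 0.0342% of 35086 genes, with 0.69 ± 0.632 for Socs3 (adjusted p = 1.0).

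Hyperovulation was compared in cumulus cells between the same 5 mice at 2 months and 8 mice of that age without it. It called 0 of 9 members by edgeR and 1 by DESeq2, beside 1.71% of 29078 genes. The member closest to the threshold was Irf1. It was 70.9, 61.2, 59.6, 62.8 and 67.0 CPM with hyperovulation and 53.4 to 359 CPM (median 110) without. Of the 8 mice without hyperovulation, 6 lay above 70.9 CPM, and the spread was 98.8 CPM (SD) against 4.6 CPM. The difference was -1.10 ± 0.305 (SE, adjusted p = 0.0528), which misses the threshold. It passed with DESeq2 (adjusted p = 0.0108), with the plate as a covariate (0.0376) and without mouse 2moNoH7 (0.0248), 2moNoH9 (0.0195) or 2moNoH13 (0.0347). Within plates it was -1.37 on B1 (adjusted p = 0.183) and -0.79 on B2 (0.351). In oocytes of these mice Irf1 was 130 to 147 CPM and 118 to 148 CPM, and the difference between cell types was -1.21 ± 0.312 (adjusted p = 0.0639), with 0 members and 0.322% of genes called.

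No other member passed between mice with and without hyperovulation. Socs3 was 1.44 to 103 CPM without hyperovulation (median 38.2) and 13.7 to 57.7 CPM with it (difference -0.30 ± 0.47, adjusted p = 0.823). Prdm1 was 0 to 43.6 CPM (median 3.31) without and 10.0 to 37.8 CPM with it (0.55 ± 0.616, adjusted p = 0.728). Cebpb was 8.39 to 51.3 CPM without and 8.66 to 23.2 CPM with it (-0.50 ± 0.298, adjusted p = 0.45). Socs2, at 251 to 347 CPM without and 324 to 381 CPM with it, differed by 0.19 ± 0.098 (adjusted p = 0.38), and 4 of the 5 hyperovulated mice lay above all mice without it. In oocytes 0 members and 0% of genes were called (edgeR and DESeq2, 1241 genes at an unadjusted p under 0.05).

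Mice without hyperovulation differed strongly among themselves. Mouse 2moNoH12, with the lowest immediate early sum of that group (4650 CPM), had the lowest Socs3 (1.44 CPM) and the highest Prdm1 (43.6 CPM). Mouse 2moNoH6, with 14400 CPM, had the highest Socs3 (103 CPM) and no Prdm1 count. Mouse 2moNoH8, with the highest sum (14800 CPM), had the highest Irf1 (359 CPM) and the highest Tnfaip3 (41.8 CPM). Over the group the sums were 4650 to 14800 CPM, against 5850 to 11300 CPM with hyperovulation, and their part in the Irf1 difference was not tested. Over these 8 mice, Pearson r with the sums was 0.919 for Socs3, -0.802 for Prdm1, 0.727 for Nfkbiz, 0.582 for Irf1 and 0.411 for Tnfaip3. Over the 22 hyperovulated mice of the second set it was weaker for these members, at 0.58, -0.219, 0.315, 0.367 and 0.176. For Nfkbia r was 0.895 without and 0.729 with hyperovulation, and for Stat3 0.604 and 0.309. For Socs2 it was -0.534 and 0.073, and for Cebpb -0.427 and 0.385.

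**Figure D4:**
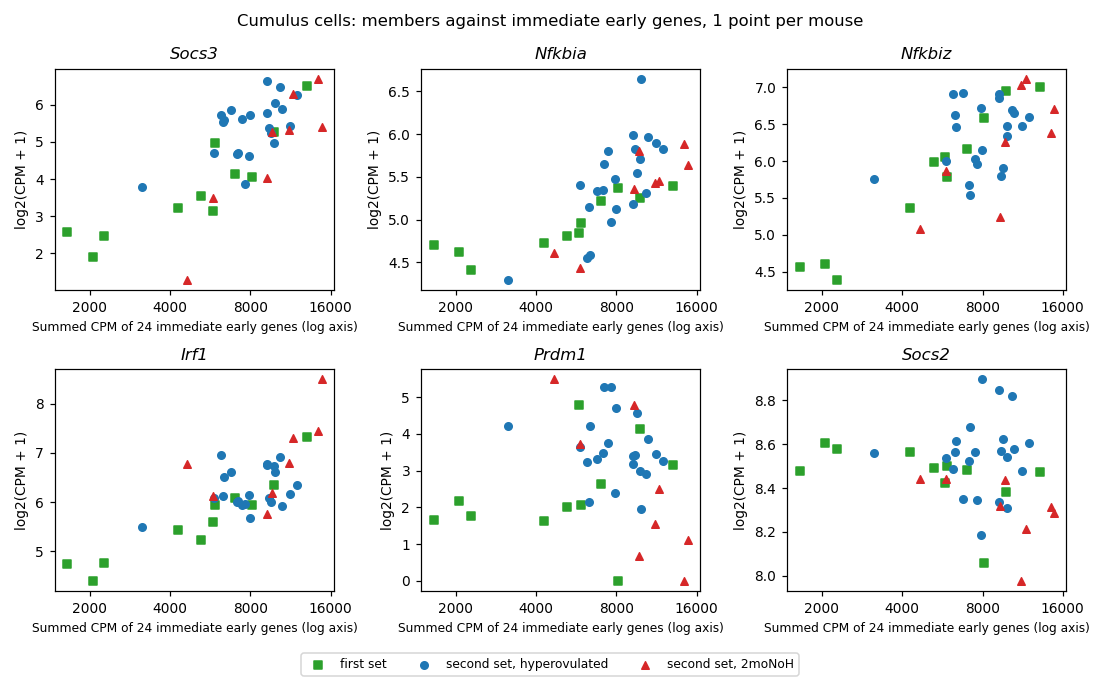
Level of 6 members in cumulus cells, as log2(CPM + 1), against the summed CPM of 24 immediate early genes on a log axis, 1 point per mouse (green squares first set, blue circles hyperovulated mice and red triangles mice without hyperovulation of the second set). The 3 first-set mice with sums of 1650 to 2270 CPM have the lowest Nfkbiz, and Prdm1 is 0 CPM in mouse 2moNoH6 with a sum of 14400 CPM.

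The remaining genes of these pathways were counted in lists, beside the 1.71% of all genes called for hyperovulation. Between mice with and without hyperovulation, cumulus cells had 1 of 14 other SOCS, PIAS and phosphatase inhibitors higher, Pias3, an inhibitor of STAT3 (29.5 ± 7.68 CPM, SD, n = 5, against 17.2 ± 6.97, n = 8, adjusted p = 0.033). The NF-kB target Bcl2l1, which blocks apoptosis, rose from 14.1 ± 4.49 to 31.7 ± 4.08 CPM (difference 1.17 ± 0.171, adjusted p = 0.000509), and 2 of 9 tested targets of that list were called, 1 in each direction. Ddit3, a C/EBP family member of the stress response, was lower with hyperovulation (17.2 ± 5.05 against 33.8 ± 12 CPM, adjusted p = 0.0208), as 1 of 6 in its list. Of 19 tested cytokine receptors 1 was lower. All 4 calls among 24 immediate early genes were lower, among them Atf3 (38.8 ± 6.75 against 82.5 ± 31 CPM, adjusted p = 0.0284) and Klf4 (60.7 ± 25.2 against 118 ± 41.1 CPM, adjusted p = 0.0284). Egr3 was 3.32 ± 2.1 against 12.2 ± 7.85 CPM (adjusted p = 0.0234). None was called among 11 ligands, 10 JAK kinases and STATs, 10 NF-kB subunits and IKK genes, 15 IkB and A20 partners, 10 other IRFs or 17 interferon-stimulated genes, and none in any of these lists between 14 and 2 months in cumulus cells. In oocytes Irf8 was lower at 9 months (difference -0.84 ± 0.146, adjusted p = 0.00608) and at 14 months (-0.92 ± 0.141, adjusted p = 0.000365), both against the same mice at 2 months. Irf8 was named after its values were seen.

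CR mice were compared with middle mice of the same age, the 4 mice that also stand in the description of age. Members were selected in part on low values in cumulus cells of these middle mice, which raises a difference from them, so the cumulus values are given as a description with no p. Over all genes, the fit called 0.0772% of 28480. Socs3 was 4.53, 30.6 and 16.6 CPM in CR mice and 7.9, 2.73, 15.5 and 5.02 CPM in middle mice. The groups overlapped, since CR1 lay below 3 of 4 middle mice, and the fitted difference was 1.49 ± 0.583 (SE). The immediate early sums, 2270, 5910 and 7020 CPM in CR mice, had the same lowest mouse, CR1. Irf1 was 26.2, 60.8 and 66.7 CPM in CR mice (0.52 ± 0.377), Stat3 67.3, 91.5 and 83.8 CPM (-0.61 ± 0.327) and Prdm1 2.43, 3.17 and 5.17 CPM (-1.24 ± 0.761). The other members lay within 0.18 of middle mice.

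In oocytes, CR called 1 of 9 members, Nfkbia, beside 7.13% of 28999 genes. Nfkbia was 27.9, 22.9 and 24.8 CPM in CR mice and 42.6, 43.6, 43.2 and 39.7 CPM in middle mice. The groups did not overlap and the difference was -0.75 ± 0.172 (SE, adjusted p = 0.0171). CR oocyte libraries were deeper, with 2752043 to 4536690 counts against 1903858 to 2624876 in middle mice, and other sums moved too. The 37 mitochondrially encoded genes summed to 10800 to 17400 CPM in CR and 7160 to 8420 CPM in middle oocytes, the immediate early genes to 173 to 246 against 263 to 502 CPM, and the heat shock genes to 2150 to 2300 against 1780 to 2130 CPM. None of these overlapped, and their part and that of depth were not tested. The call was lost without Middle2 (adjusted p = 0.0518), CR2 (0.0855) or CR3 (0.0736) and with the left-out complex included (0.0626), while the difference stayed between -0.83 and -0.65. Socs3 was 8.75, 9.93 and 9.77 CPM in CR and 5.79, 4.77, 3.25 and 7.8 CPM in middle oocytes, also without overlap (0.75 ± 0.25, adjusted p = 0.0894). Cebpb was 9.31, 8.47 and 9.22 CPM in CR and 10.6 to 18.6 CPM in middle oocytes (-0.63 ± 0.21, adjusted p = 0.088). The lowest Socs3 (3.25 CPM) and the highest Cebpb (18.6 CPM) were both in Middle3, which rests on a single oocyte library. Irf1 was 158, 154 and 177 CPM against 132 to 140 CPM (0.27 ± 0.119, adjusted p = 0.203). The fit of the difference between cell types in the CR change called 0.453% of 34464 genes. This difference rests on the same middle cumulus cells, so its member values are a description. It was 0.52 ± 0.325 for Nfkbia.

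Other NF-kB genes were called in CR oocytes in both directions. Of 15 IkB and A20 partners tested, 2 were higher and 2 lower. Those higher were Otud7b, a deubiquitinase (0.97 ± 0.224, adjusted p = 0.0175), and Tax1bp1, a partner of A20 (0.58 ± 0.12, adjusted p = 0.0096). The inhibitor genes Nfkbib (-0.83 ± 0.186, adjusted p = 0.0156) and Nfkbie (-0.94 ± 0.218, adjusted p = 0.0175) were lower, like Nfkbia. The kinase genes Chuk (1.08 ± 0.152, adjusted p = 0.00108) and Ikbkb (0.58 ± 0.13, adjusted p = 0.0158), whose products mark IkB proteins for destruction, were higher and were 2 of 10 in their list. Jak2 was higher and Stat5a lower among 10 JAK kinases and STATs, and 1 of 14 interferon-stimulated genes, B2m, was lower. Of 19 cytokine receptors, Il1r1 was higher (0.70 ± 0.127) and Ifnar2 lower (-2.53 ± 0.64), and Socs4 (0.66 ± 0.147) and the NF-kB target Ptgs2 (1.95 ± 0.424) were the calls of their lists, both higher. With 7.13% of all genes called in this comparison, calls in both directions were common. These genes were named after their values were seen.

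**Figure D5:**
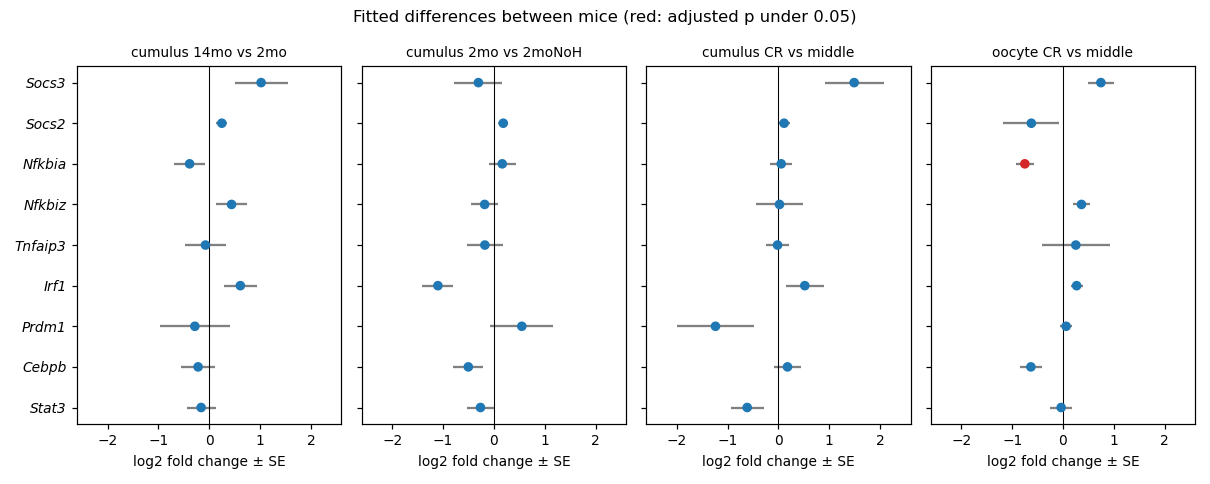
Fitted log2 difference (± SE) of each member between mice in 4 comparisons, with red for an adjusted p under 0.05. The panel for CR in cumulus cells is a description. Nfkbia in CR against middle oocytes (-0.75 ± 0.172) is the red point, and Irf1 in cumulus cells with against without hyperovulation lies at -1.10 ± 0.305.

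Genes with the most similar pattern were sought over the 22 hyperovulated mice of the second set, in cumulus cells, among 10442 genes with at least 8 CPM. The mean standardized level of the 9 members was most like that of Bcar1 (r = 0.849), Gm17058 (0.839), Nfil3 (0.83), Smg9 (0.825), Pim1 (0.815), Csnk2b (0.812), Bhlhe40 (0.808), Sik1 (0.804), Per1 (0.796) and Hes1 (0.795). Pim1 encodes a kinase and Nfil3 and Bhlhe40 transcription factors of the clock and of immune cells. The members did not share one pattern over these mice, so their mean joins opposed genes. Nfkbiz went with Irf1 (r = 0.713) and Socs3 (0.644), while Prdm1 went against Nfkbiz (-0.573), Irf1 (-0.509) and Socs3 (-0.438). Socs3 alone was most like Fam83d (0.856), Gm17056 (0.835), Id3 (0.826), Id1 (0.823) and Gm19327 (0.823). Id1 and Id3 encode inhibitors of DNA binding that respond to BMP signals. These values describe likeness across mice that share plates and depth, and were chosen as the highest of all genes.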

How the data were processed

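RNA was profiled by RamDA-seq in single mouse oocytes and their cumulus cells. Trimmed reads were aligned by the authors to GRCm38 (HISAT2 2.0.5), and featureCounts 1.5.1 assigned them to genes of GENCODE vM15, with multi-mapped reads divided between genes. The deposited expected count tables held 41092 (first set) and 42349 genes (second set), and 36.8% and 35.1% of nonzero values were not whole. Symbols came from GENCODE vM21, which matched 43429 of 43633 identifiers. The authors also deposited RPKM values, which were used here for levels per gene length in the second set only, and those of the CR libraries were not used. Trimming, the multi-mapping rule and the missing molecular identifiers can shift levels, and errors cover counting and the spread between mice only.

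Expected counts were summed per mouse and rounded, since complexes of a mouse are not independent replicates, and compared by the quasi-likelihood F test of edgeR 4.0.16 in R 4.3.3, with TMM factors and estimated dispersions, in one fit per set and cell type with all its groups. Genes needed a nonzero count in 5 or more libraries, and calls were made at a false discovery rate of 5%. SE is the log2 difference divided by the square root of F. The study compared libraries, which is an alternative here. Others were DESeq2 1.42.0, filterByExpr, no filter, only the groups compared, the plate, all deposited libraries, the mouse as a block between cell types and each mouse left out. No pair of libraries was identical, and the test was checked on simulated data. The oocyte and cumulus cells of a complex come from the same mouse, which is where the pairing comes from.

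Members and lists were chosen with earlier results of these data known. Besides the 9 members, the genes named were at most 3 per list and direction with a mean of at least 8 CPM past the threshold in cumulus cells at 14 against 2 months or with against without hyperovulation, the 10 genes most like the members' mean and the 5 most like Socs3. The oocyte genes named from the lists (Irf8, and all pathway-list calls of CR oocytes) fall outside this rule and were chosen after their values were seen. Ifna4, Ifit3 and Ccl7, listed for these pathways, were not matched. Promoter windows of 300 bases came from RefSeq.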

Additional observations from a re-analysis of the deposited data

Results flagged for a closer look

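Of 108 groups of 4 to 8 mice checked, 9 held 1 mouse set far apart from the others of its group, and chance sets about 1 in 20 groups apart. In cumulus cells, Prdm1 was 26.5 CPM in mouse Middle1, while the other middle mice lay between 0 and 3.48 CPM. Prdm1 was 37.8 CPM in mouse 2mo2, against 10.0 to 13.6 CPM in the others. Nfkbia was 99.3 CPM in mouse 4mo5, against 34.4 to 55.9 CPM. Irf1 was 359 CPM in mouse 2moNoH8, against 53.4 to 174 CPM. In oocytes, Cebpb was 19.5 CPM in mouse 2mo34 (others 12.8 to 14.4 CPM) and 5.48 CPM in mouse 14mo38 (others 10.4 to 11.8 CPM). Socs2 was 3.24 CPM in oocytes of mouse 9mo24, against 1.6 to 1.82 CPM. Tnfaip3 was 0.364 CPM in oocytes of mouse 4mo27 (others 0 to 0.169 CPM) and 0.375 CPM in mouse 2moNoH9 (others 0 to 0.137 CPM), values that rest on few reads.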

How the results depend on the processing

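Over all members and comparisons, 2593 values under an alternative stayed the same, 41 became significant, 4 lost significance, 1 reversed and 163 moved. Same means that direction and side of the threshold were kept. For the described age values of first-set cumulus cells it means a shift below the pooled SD between mice. Nearly all of the 163 moved by a change of sign in a value that passed in neither fit. The counts include the described CR values. With libraries in place of mice, more members passed, since libraries of a mouse then count as independent. In cumulus cells these were Prdm1 at 4 against 2 months, Nfkbia at 14 against 4 months and Irf1 with against without hyperovulation. In oocytes they were Cebpb at 14 against 2 months, Nfkbiz in old against young mice and 4 members in CR mice. Members passing in CR cumulus cells are not counted, since members were selected in part on the same middle mice. The same holds, under any setting, for the cell type difference for CR, which rests on those middle cumulus cells. With libraries, Irf1 in that difference turned from -0.07 to 0.73, the cause of which was not tested. With libraries the cell type difference for hyperovulation called 1 member. For hyperovulation in cumulus cells, DESeq2, filterByExpr, no filter and the plate as a covariate each called 1 member, Irf1, and leaving out single mice gave 0 to 1. The cell type difference for hyperovulation called Irf1 under DESeq2, filterByExpr and the plate as a covariate. On plate B1 alone it called Socs2 instead (2.03, adjusted p = 0.0153). Leaving out single mice there gave 0 to 1 member. In CR oocytes, DESeq2 called 2 members, no filter 4 and all deposited libraries 0, and leaving out single mice gave 0 to 2. No filter also called 1 member in old against young oocytes, and plate B1 alone called 2 in oocytes at 14 against 2 months. In the other comparisons the count without single mice was that of all mice. All deposited libraries changed nothing in the second set, where none was left out. With the mouse as a block, 7 members differed between cell types at 2 months and 0 in the cell type differences for age and hyperovulation. The genes called were 22471, 4 and 173, and 603 in the cell type difference for CR.

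Counts over all genes moved more. With libraries as the unit they were 115, 440, 356, 1087 and 28 for cumulus cells (4, 9 and 14 against 2 months, 14 against 4, 14 against 9), 3090 for hyperovulation and 903 for CR, and 3, 36, 224, 7, 7552 and 1635 for oocytes (4, 9 and 14 against 2 months, hyperovulation, CR, old against young). By DESeq2 the hyperovulation count was 1050 and those of CR 370 in cumulus cells and 3358 in oocytes. Leaving out single mice gave 214 to 793, 0 to 80 and 928 to 2537 for these 3, and 5 to 58, 6 to 20 and 2 to 165 in cumulus cells at 9 and 14 against 2 months and 14 against 4. With no filter they were 98 in cumulus cells at 14 against 4 months, 323 for CR in cumulus cells, 3372 for CR in oocytes, 805 in old against young oocytes (0 with the filter) and 744 for the cell type difference for CR. DESeq2 called 245 in cumulus cells at 14 against 4 months, 42 and 177 in oocytes at 9 and 14 against 2 months and 56, 605 and 1596 for the cell type differences (age, hyperovulation, CR), for which libraries gave 211, 1199 and 3834. The plate as a covariate gave 1086 for hyperovulation and 165 at 14 against 4 months, and all deposited libraries 891 for CR oocytes. With only the groups compared, 223 genes were called for hyperovulation and 0 for CR in cumulus cells. Low counts limit Tnfaip3 and Socs2 in oocytes.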
